A study of Rattus norvegicus with 3 samples.

Results

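10 genes of NF-kappaB signalling and inducible inflammation were examined in rat brainstem: Tnfaip3, Nfkbia, Nfkb1, Ptgs2, Icam1, Socs3, Il1r1, Tlr4, Il4r and Bcl3. They were taken as the probe sets whose single gene symbol in the platform annotation was one of these names, and all 10 were found among 14217 named genes. They were measured by 14 probe sets, a probe set being the group of short oligonucleotides that reads 1 transcript. Where a gene had several, the one with the highest mean over the arrays gave its value. The 3 arrays came from a hand acupuncture group, a TBI (traumatic brain injury) group and a sham group, with 1 array each, all taken 1 h after modelling. The treatment label Hand Acu does not say where needles were placed, nor whether these rats were also injured. Tissue of 5 rats was mixed, taken here to mean 1 pool for each group, and strain, sex, age and the way the injury was made are not given in the labels. With 1 pooled sample a group there is no replicate, so values carry no error, nothing was tested, and every difference is between 2 RNA pools.

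NF-kappaB is a family of dimeric transcription factors that IkappaB proteins hold in the cytoplasm of resting cells. Interleukin-1 receptors, Toll-like receptors and tumour necrosis factor receptors activate a kinase complex that marks IkappaB for destruction, and the freed dimers switch on inflammatory genes. Among the first genes switched on are those of its own inhibitors, Nfkbia (IkappaB-alpha) and Tnfaip3 (A20), so their messenger RNA is used as a readout of the pathway, in rat brain among other tissues. A parallel loop joins cytokine receptors to STAT factors and to their inhibitor Socs3.

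Stretches of 5 promoters are shown because these genes are known targets of NF-kappaB and their start regions hold letters that match its motifs. RefSeq windows of assembly GRCr8, from 250 bases before to 50 bases after each gene's start, matched all 10 genes. The kappaB consensus, searched on both strands, was found in the windows of 7 of the 10, against 7.51% of all 33469 windows. A shorter motif, GGAANTTCC, which overlaps the consensus in Nfkbia and Nfkb1, was found in 3 of the 10, against 0.872% of all windows. Both motifs were chosen after these sequences had been seen, and the genes were chosen as part of its pathway, so the counts describe the set only. Runs are given 5′ to 3′ on the gene's strand, with capitals marking the bases that matched either motif.
Tnfaip3: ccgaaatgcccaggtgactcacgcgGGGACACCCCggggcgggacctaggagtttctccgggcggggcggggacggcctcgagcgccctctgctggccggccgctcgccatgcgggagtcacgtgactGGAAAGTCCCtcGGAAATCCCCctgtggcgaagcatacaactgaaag
Nfkbia: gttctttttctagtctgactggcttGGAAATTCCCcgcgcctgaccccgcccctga
Nfkb1: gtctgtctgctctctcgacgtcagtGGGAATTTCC
Bcl3: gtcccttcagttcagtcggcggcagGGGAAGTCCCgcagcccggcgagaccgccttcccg
Icam1: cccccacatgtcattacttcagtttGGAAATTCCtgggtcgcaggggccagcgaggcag
The Tnfaip3 run lies at chr1:15544000-15544174 (minus strand), that of Nfkbia at chr6:78597073-78597128 (minus strand) and that of Nfkb1 at chr2:226805450-226805484 (minus strand). The Bcl3 run lies at chr1:88613559-88613618 (minus strand) and the Icam1 run at chr8:27829602-27829660 (plus strand). Tnfaip3 held 3 matches, and 2 of them began 67 and 55 bases before the start. The match of Nfkbia began 31 bases before the start and that of Bcl3 38 bases before it, whereas that of Nfkb1 began 4 bases into the transcript. Icam1 had the shorter motif and not the consensus, and Socs3, Il1r1 and Il4r each had 1 match to the consensus. No match to either was present in the windows of Ptgs2 and Tlr4.

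5 of the 10 genes lay above a floor on signal. MAS5, the method that made these signals, subtracts mismatch probes, and differences between arrays become erratic at low signal. A floor was therefore set at 7.44 in mean log2 signal, the median of the non-control probe sets. Nfkbia, Ptgs2, Tnfaip3, Nfkb1 and Il1r1 lay above it, as did 9241 of the 14217 genes, and Icam1, Il4r, Socs3, Bcl3 and Tlr4 lay below it, as did 4976 genes. For genes above the floor the SD over genes of the TBI minus sham log2 difference was 0.20, and for genes below it 1.04. Each difference is therefore set beside the central 95% of differences over genes in the same decile of mean signal. The 3' to 5' signal ratio of beta-actin, a sign of RNA integrity, ran between 5.58 and 6.69 over the arrays and was highest for hand acupuncture and lowest for sham. That of Gapdh was also highest for hand acupuncture, at 1.28, but lowest for TBI. Of the brainstem markers, Slc6a4, Hoxa5 and Chat lay above the floor on the mean of the arrays, while Dbh and Slc6a5 lay below it. Slc6a4, Hoxa5 and Chat were each higher than in sham, with a median log2 difference of 0.48 for TBI and 0.34 for hand acupuncture, and Hoxa5 differed most, by 1.22 and 0.99. The 5 cerebellum markers, among them Gabra6, had a median log2 difference of −0.70 for TBI minus sham and −0.76 for hand acupuncture minus sham, the opposite direction. What these differences in tissue markers add to the values below was not tested. In such bulk tissue fewer cells of a type and less RNA per cell cannot be told apart.

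The inhibitors Nfkbia and Tnfaip3 were highest in the TBI pool, by small amounts, and nearly the same in the other 2 pools. Nfkbia had log2 signals of 9.81 in the hand acupuncture pool, 9.94 in the TBI pool and 9.75 in the sham pool. The TBI pool stood 0.18 above sham (1.14-fold) and the hand acupuncture pool 0.12 below TBI and 0.06 above sham. Tnfaip3, a ubiquitin-editing enzyme that shuts off the signal from the receptors, had log2 signals of 8.53 in the hand acupuncture pool, 8.80 in the TBI pool and 8.50 in the sham pool. That is 1.23-fold higher in the TBI pool than in the sham pool, and 1.21-fold lower in the hand acupuncture pool than in the TBI pool. The hand acupuncture and sham pools differed by 0.03 for this gene. Genes in the same decile of signal as Tnfaip3 spanned −0.43 to 0.45 in their central 95% for TBI minus sham, so its difference of 0.30 lies inside that range. For Nfkbia the range was −0.35 to 0.33, and 0.18 lies inside it as well.

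**Figure D1:**
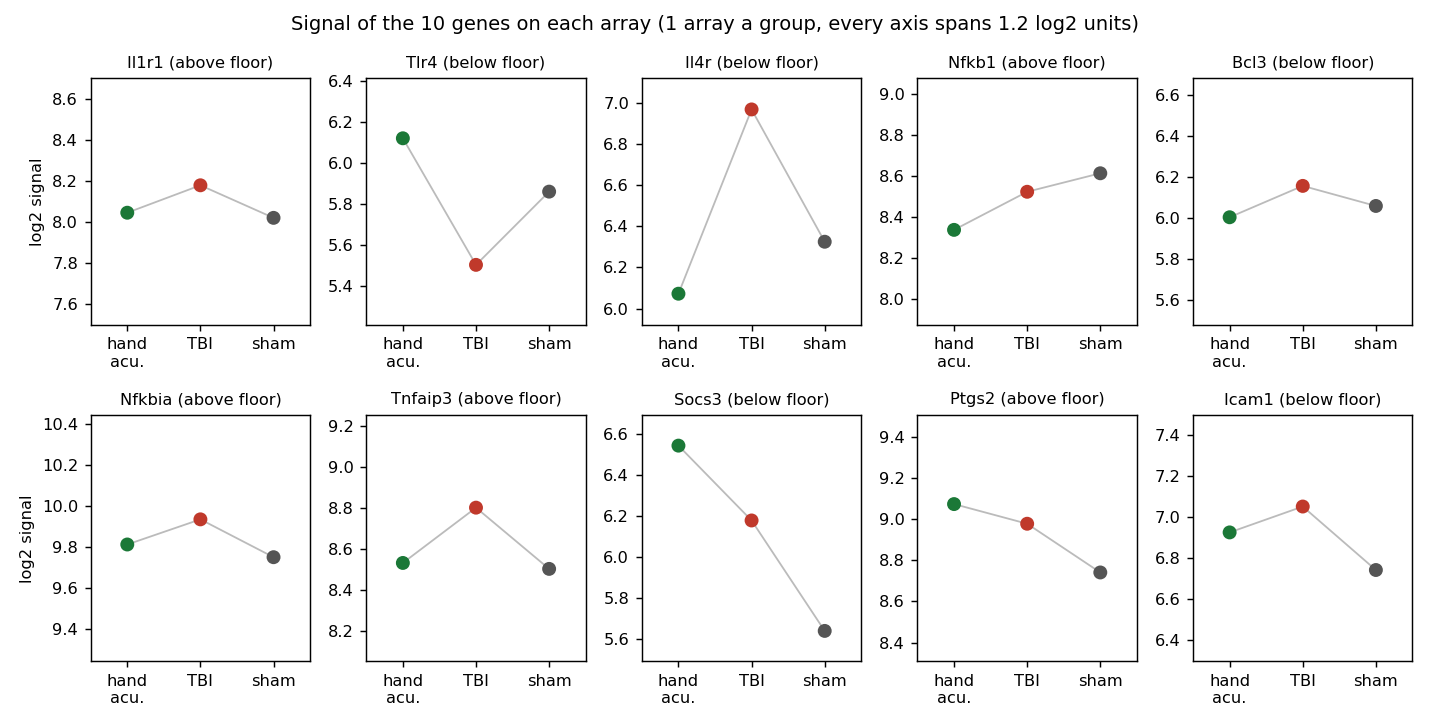
Log2 MAS5 signal of the 10 genes (y axis, a span of 1.2 log2 units in every panel) in the hand acupuncture, TBI and sham pools (x axis), 1 point per array with no error bar because each group is 1 array. 6 genes are highest in the TBI pool, 3 in the hand acupuncture pool and 1 in the sham pool. Of all 14217 genes, 32.3%, 35.6% and 32.1% are highest in these pools, in that order. Il4r and Socs3 show the widest spans, of 0.90 each.

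Socs3, the inhibitor of JAK kinases that STAT3 induces, had another order: hand acupuncture highest and sham lowest. Its log2 signals were 6.54 in the hand acupuncture pool, 6.18 in the TBI pool and 5.64 in the sham pool, or 93.3, 72.5 and 49.9 in linear signal. Hand acupuncture was 1.87-fold over sham, TBI 1.45-fold over sham and hand acupuncture 1.29-fold over TBI. All 3 values are below the floor, where the central 95% of like genes ran from −0.79 to 1.03 for hand acupuncture minus sham, and the difference of 0.90 is inside it. Addition of an offset of 50 to the linear signal brought that difference to 0.52. Of the 4976 genes below the floor, 41.8% were highest in the hand acupuncture pool and 39.2% were lowest in the sham pool. Each was the commonest case, so such an order is usual for dim genes. Stat3, the transcription factor upstream of Socs3, had 7.53 in hand acupuncture, 7.83 in TBI and 8.25 in sham by its brightest probe set, the opposite order. Its second probe set above the floor was level, at 7.67, 7.60 and 7.62. Cebpd, a transcription factor gene known to be induced by STAT3 and by glucocorticoids, ran the same way as Socs3, at 8.80, 8.43 and 7.95 in that order, although the dimmest of its 3 probe sets did not. The 5 measured neutrophil and lymphocyte markers, all below the floor, also had summed linear signals in the order of Socs3, with 324.7 in the hand acupuncture pool, 217.1 in the TBI pool and 180.7 in the sham pool. Of their defining genes, S100a8 had 6.17, 5.51 and 5.27 in log2 signal on those arrays, and S100a9, the brightest, had 7.46, 7.14 and 6.67. Cd3e, a lymphocyte marker, was the only one of the 5 with another order, at 5.27, 4.49 and 5.11, lowest in TBI. The part of white blood cells in the Socs3 values was not tested.

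The DNA-binding subunit and its nuclear partner showed no common order. Nfkb1, which encodes the p105 precursor of the p50 subunit, was the only gene of the 10 to be highest in the sham pool. It had log2 signals of 8.34 in the hand acupuncture pool, 8.52 in the TBI pool and 8.61 in the sham pool. Its largest difference, −0.28 for hand acupuncture minus sham (1.21-fold lower), lay within the central range of −0.53 to 0.50. Bcl3, an IkappaB-like protein that works in the nucleus with p50 and p52 dimers, was flat in its brightest probe set, at 6.00, 6.16 and 6.06 in the hand acupuncture, TBI and sham pools. Its other 2 probe sets disagreed with each other: 1 was 1.28 higher in the TBI pool than in the sham pool, and the other 0.42 lower. Both had a mean log2 signal below 5, so the order of the arrays for Bcl3 is not settled.

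Of the receptors, Il1r1 was nearly level, while Il4r and Tlr4 had the larger differences at low signal. Il1r1, the signalling receptor of interleukin-1, had log2 signals of 8.05 in the hand acupuncture pool, 8.18 in the TBI pool and 8.02 in the sham pool. The TBI pool was 1.12-fold over sham, and the hand acupuncture pool 1.10-fold under TBI. 2 further Il1r1 probe sets lay far below the floor. In the first of these, the log2 signal was 3.11 in the hand acupuncture pool, 4.05 in the TBI pool and 4.16 in the sham pool. The second had 0.85, 4.89 and 3.90 in that order, so both were lowest in the hand acupuncture pool, where the brightest probe set was not. With the mean of the 3 probe sets, the hand acupuncture pool differed in Il1r1 by −1.71 from TBI and by −1.36 from sham, against −0.13 and 0.02 with the brightest alone.

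**Figure D2:**
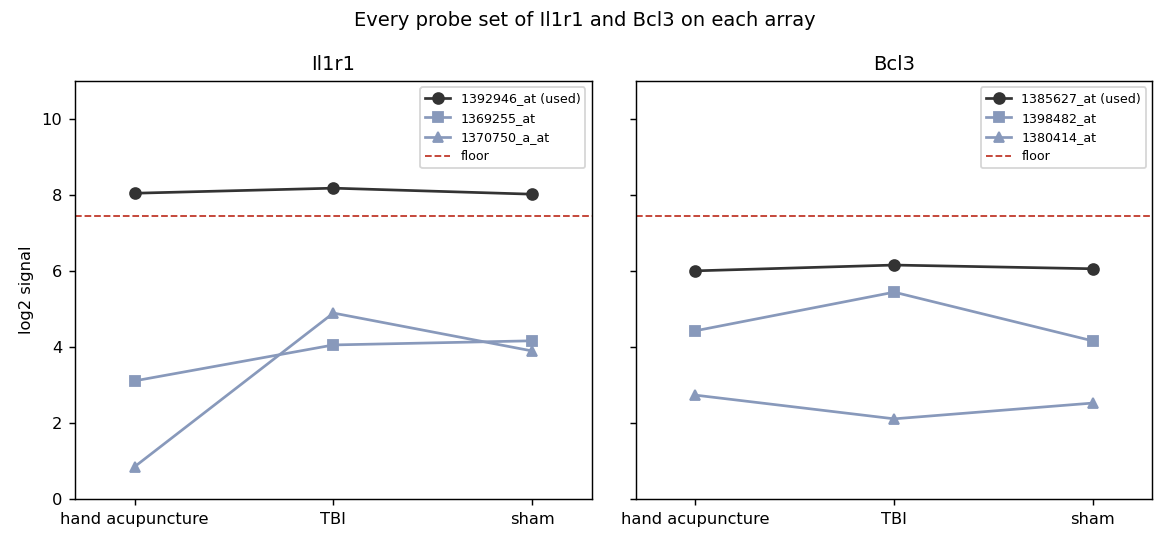
Log2 signal (y axis) of the 3 probe sets of Il1r1 and the 3 of Bcl3 in the hand acupuncture, TBI and sham pools (x axis), with the floor of 7.44 as a dashed line and the probe set used in black. The Il1r1 probe set in use is the single one above the floor, and the largest drop, to 0.85 in the hand acupuncture pool against 4.89 in the TBI pool, is in the dimmest one.

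Il4r, the alpha chain shared by the receptors for interleukin-4 and interleukin-13, had log2 signals of 6.07 in the hand acupuncture pool, 6.97 in the TBI pool and 6.33 in the sham pool. In linear signal these are 67.3, 125.4 and 80.2, so the TBI pool stood apart from the other pair. Il4r was 1.56-fold higher in the TBI pool than in the sham pool. In the hand acupuncture pool it was 1.86-fold lower than in the TBI pool and 1.19-fold lower than in the sham pool. The hand acupuncture minus TBI difference, −0.90, was the 1 of the 30 differences of these genes that lay outside the central 95% of genes of like signal (−0.83 to 0.85). Such a range leaves a small share of all genes outside it by definition, and 1 of 30 is not above that share. With an offset of 50 the Il4r difference was −0.58. Tlr4, which recognises bacterial lipopolysaccharide and products of damaged tissue, ran opposite to Il4r. Its log2 signals were 6.12 in the hand acupuncture pool, 5.51 in the TBI pool and 5.86 in the sham pool. Hand acupuncture was 1.53-fold over TBI, and TBI 1.28-fold under sham. Genes as dim as Tlr4 spanned −1.43 to 2.08 for hand acupuncture minus TBI, so 0.62 lies well inside. Il4r and Tlr4 have 1 probe set each, as do all of the 10 genes but Il1r1 and Bcl3. No second reading of these 8 genes was available here.

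Of the inducible effectors, Ptgs2 and Icam1 were both lowest in the sham pool. Ptgs2, the inducible cyclooxygenase that starts prostaglandin synthesis and is also made by resting neurons, had log2 signals of 9.07 in the hand acupuncture pool, 8.98 in the TBI pool and 8.74 in the sham pool. It was 1.26-fold higher in hand acupuncture than in sham and 1.18-fold higher in TBI than in sham. The first of these differences, 0.33, compares with a central range of −0.53 to 0.50. Icam1, the adhesion molecule by which endothelium holds white blood cells, had log2 signals of 6.92 in the hand acupuncture pool, 7.05 in the TBI pool and 6.74 in the sham pool. The TBI pool was 1.24-fold over sham, against a central range of −0.76 to 0.91 for a log2 difference of 0.31. Endothelial markers did not have this order: 7 of the 8 above the floor were lower in TBI than in sham, and the summed linear signal of the 9 measured was 5559 in the hand acupuncture pool, 5366 in the TBI pool and 6408 in the sham pool.

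Over the 10 genes in TBI against sham, 8 of the 10 genes were higher in the TBI pool, with Nfkb1 and Tlr4 lower, and the median log2 difference was 0.21. Of all 14217 genes 51.6% were higher, with a median of 0.01. Among genes above the floor, 4 of 5 members were higher, with a median of 0.18, against 51% of 9241 genes and a median of 0.00. At 1.5-fold, 0 of the 5 members above the floor passed in either direction, against 1.55% of genes above it. Below the floor Il4r alone passed upwards, 1 of 5, against 18.9% of genes below it, so the share of members past 1.5-fold was close to the background. Microglial markers, like Nfkbia, Tnfaip3 and Il1r1, were highest in the TBI pool in summed signal. Of the 8 above the floor, 6 were higher in the TBI pool than in the sham pool (median 0.17) and 5 were lower in hand acupuncture than in TBI (median −0.22). The summed linear signal of the 11 microglial markers measured was 4755 in the hand acupuncture pool, 5482 in the TBI pool and 4828 in the sham pool. Other cell type lists were also highest in TBI in summed signal, among them oligodendrocytes, neurons, brainstem neurons and astrocytes. Astrocyte markers summed to 40857 in hand acupuncture, 43451 in TBI and 40087 in sham. The lists of endothelium, pericytes and smooth muscle, neutrophils and lymphocytes, and cerebellum were not highest in TBI. The 2 red cell markers summed to 10944 in hand acupuncture, 14424 in TBI and 11480 in sham. Their medians were 0.33 for TBI minus sham and −0.33 for hand acupuncture minus TBI. The 6 markers of meninges and fibroblasts had medians of 0.16 and −0.13 in these comparisons, and the 5 of choroid plexus summed to 15909, 19134 and 17609 in the 3 pools. By far the brightest of those 5 was Ttr, at 13.82, 14.07 and 13.93 in log2 signal. Kl and Folr1 were highest in sham, and the median TBI minus sham difference of the 5 was 0.05. The part of any of these cells in the values was not tested.

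For hand acupuncture against TBI, 7 of the 10 genes were lower in hand acupuncture, and Ptgs2, Socs3 and Tlr4 were higher. The median log2 difference was −0.13, while 47.9% of all genes were lower and their median was 0.01. Above the floor 4 of 5 members were lower, against 50.7% of genes. None of these 5 passed 1.5-fold in either direction, against 1.21% of genes above the floor. Below it, Tlr4 passed upwards, against 21.6% of genes there, and Il4r downwards, against 13.9%. This comparison and the preceding one share the TBI pool, which enters them with opposite signs, so their directions are not independent, and hand acupuncture minus sham shares an array with each of them.

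**Figure D3:**
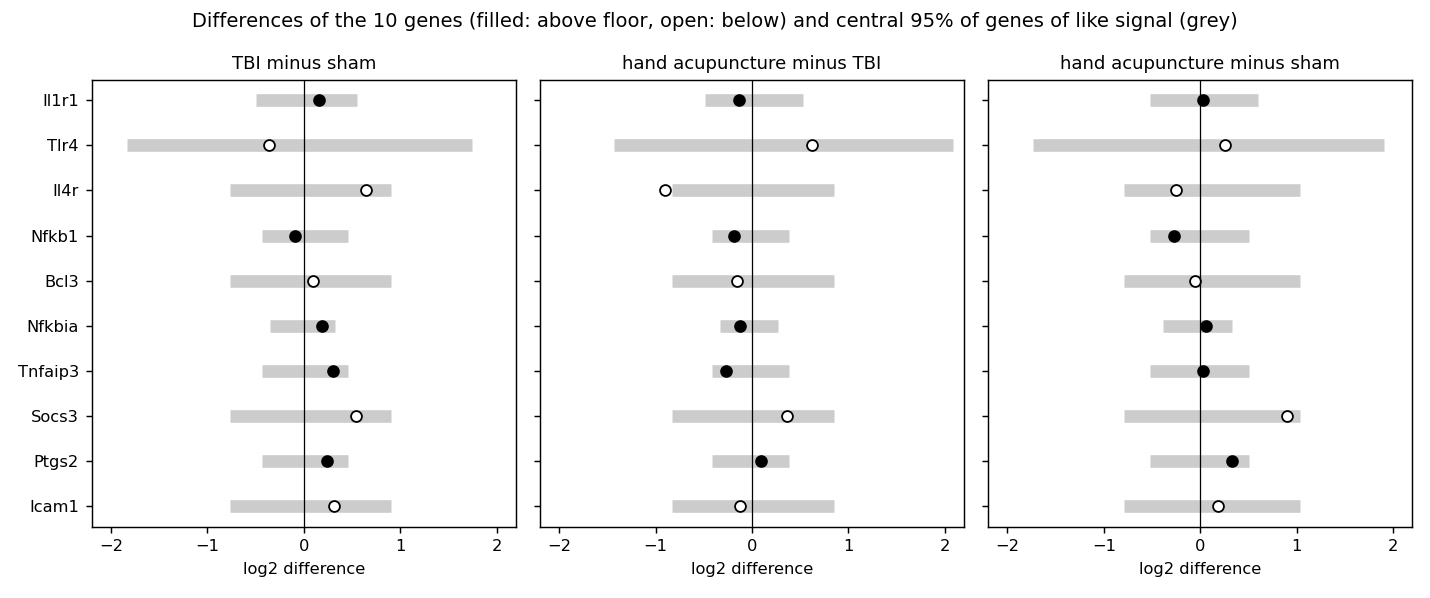
Log2 differences (x axis) of the 10 genes (rows, ordered as receptors, NF-kappaB subunit and partner, inhibitors, effectors) in the 3 comparisons, with filled circles for genes above the floor and open circles for those below. Grey bars give the central 95% of all genes in the same decile of mean signal, and the 1 circle outside its bar is Il4r in hand acupuncture minus TBI, at −0.90. Each bar leaves a small share of all genes outside it by definition.

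For hand acupuncture against sham, the 5 members above the floor had differences of 0.33 (Ptgs2), 0.06 (Nfkbia), 0.03 (Tnfaip3), 0.02 (Il1r1) and −0.28 (Nfkb1). Over the 10 genes 7 were higher, against 53.7% of all genes, with a median of 0.05, against 0.02 over all genes. At 1.5-fold 0 of 5 passed above the floor, against 1.89% of genes there. Below it Socs3 passed upwards, 1 of 5, against 23.4% of genes. So the inhibitors Nfkbia and Tnfaip3 lay close together on these arrays, whereas Socs3, Ptgs2 and Nfkb1 had their largest differences here.

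The rest of the pathway was read from 7 lists holding 115 genes, of which 100 were measured and 45 lay above the floor. For TBI minus sham 22 of these 45 were higher and 23 lower, with a median of −0.02, and 0 passed 1.5-fold, where 51% of genes above the floor were higher and 1.55% passed. For hand acupuncture minus TBI 21 were higher and 24 lower, and 1 passed 1.5-fold, where 50.7% of genes above the floor were lower and 1.21% passed. That gene was Gadd45b, a stress-induced signalling gene that NF-kappaB switches on, at 7.50 in log2 signal in the hand acupuncture pool, 8.21 in the TBI pool and 8.05 in the sham pool. For hand acupuncture minus sham 17 were higher and 28 lower, and Stat3 passed 1.5-fold, at −0.71, where its second probe set had 0.05. In that comparison 51% of genes above the floor were higher and 1.89% passed. The counts past 1.5-fold are thus near the background.

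The 19 other target genes of NF-kappaB were all measured, but only 5 were above the floor. Against 51% of all genes above the floor, all 5 were higher in the TBI pool than in the sham pool, by at most 0.18 (median 0.17). These were Sod2, the mitochondrial superoxide dismutase, Ier3, Gadd45b, Csf1, a growth factor of microglia, and Vcam1, an endothelial adhesion molecule. With the dim genes included 17 of 19 were higher in TBI, which compares with 51.6% of all genes, and 6 of the 19 were at least 1.5-fold higher, against 7.19% of all genes. In the same comparison 1 of the 19 was at least 1.5-fold lower, against 6.37% of all genes. All 6 of the higher genes were below the floor, where 18.9% of genes were that much higher. Among them Cxcl1, a neutrophil chemokine, had 5.94 in hand acupuncture, 6.10 in TBI and 2.64 in sham. For hand acupuncture minus TBI 8 of the 19 were higher and 11 lower, where 52.1% of all genes, and 57.3% of those below the floor, were higher. For hand acupuncture minus sham 16 were higher, against 53.7% of all genes and 58.7% of those below the floor. In that comparison 7 of the 19 were at least 1.5-fold higher, against 8.83% of all genes. All 7 were below the floor, where the share was 23.4%, and 0 of the 19 were that much lower. Csf1 was highest in hand acupuncture, 0.39 above TBI and 0.48 above sham.

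Upstream genes went both ways by small amounts. Apart from Nfkb1 and Nfkbia, described above, 2 NF-kappaB and IkappaB genes lay above the floor, and both, Rela (the p65 subunit) and Nfkbib (IkappaB-beta), were lowest in the TBI pool. Rela had 8.48 in the hand acupuncture pool, 8.18 in the TBI pool and 8.38 in the sham pool in log2 signal, and Nfkbib had 8.37, 8.14 and 8.21. Of 11 kinases and adaptors above the floor, 4 were higher and 7 lower for TBI minus sham (median −0.04). Chuk and Ikbkb, which encode the 2 catalytic subunits of the IkappaB kinase, differed by −0.39 and 0.30 in that comparison. Ikbkb was barely above the floor, at a mean of 7.48, and its second probe set, below the floor, differed by 0.04. The 7 other negative regulators had a median of 0.02, with Otud7b, a deubiquitinase, at 8.90 in hand acupuncture, 8.53 in TBI and 8.48 in sham, while its second probe set above the floor had 8.41, 8.45 and 8.31. Tnip2, also of these 7, had 7.81 in hand acupuncture, 7.65 in TBI and 7.49 in sham. 5 other cytokine receptors were above the floor. Among them Il6r, the interleukin-6 receptor, had 7.50 in the hand acupuncture pool, 7.96 in the TBI pool and 7.43 in the sham pool, and like Il4r was highest in TBI. Tnfrsf1a, the main receptor of tumour necrosis factor, was lower in the TBI pool than in the sham pool, at 8.18 and 8.59. The 4 prostaglandin genes above the floor differed by at most 0.25, with Pla2g4a, the phospholipase that supplies arachidonic acid, at 7.91, 8.16 and 7.95 in the hand acupuncture, TBI and sham pools. Ptgds, also of these 4, had 13.93, 14.10 and 13.98 in that order. Of 11 JAK-STAT and SOCS genes above the floor, 5 were higher and 6 lower for TBI minus sham (median −0.05).

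**Figure D4:**
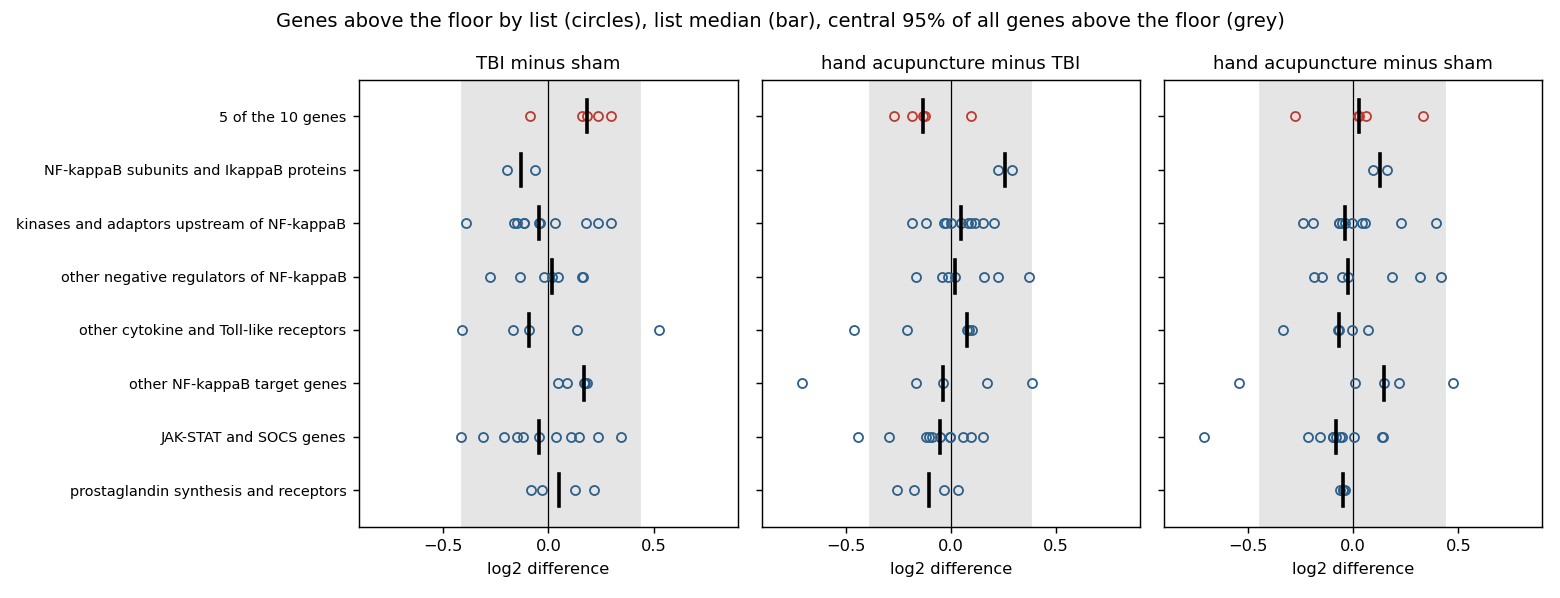
Log2 differences (x axis) in the 3 comparisons of genes above the floor, by list (rows), with the 5 of the 10 genes in red, other lists in blue, list medians as black bars and the central 95% of all genes above the floor in grey. The 5 red circles lie inside the grey band in each comparison, and Gadd45b and Stat3 are among the few circles outside it.

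Glucocorticoids also induce Nfkbia, so a list of 10 glucocorticoid-induced genes, all above the floor, was set beside it. For TBI minus sham 7 were higher (median 0.18) and for hand acupuncture minus sham 9 were higher (median 0.21), while for hand acupuncture minus TBI 6 were higher (median 0.03). Of all genes above the floor, 51%, 51% and 49.3% were higher in these comparisons. Sgk1, a kinase gene of this group, had 13.09 in the hand acupuncture pool, 13.23 in the TBI pool and 12.87 in the sham pool, and Tsc22d3, which encodes GILZ, had 12.60, 12.48 and 12.32. The part of glucocorticoids in the values of Nfkbia was not tested.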

How the data were processed

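Per the labels' protocols, brainstem taken at 1 h was frozen, and 6 µg of Trizol-extracted total RNA went into biotin-labelled cRNA. The deposited values are log2 signals made with MAS5, per the submitters' processing notes. Raised to the power of 2, they had a mean of 500.0 on every array with 2% trimmed at each end, which is how the log base and the common scale were found. The platform annotation of 2016 gave 1 gene symbol to 20826 of the 31099 probe sets, several to 436 and none to 9780, leaving 57 controls. The identifiers of all 10 genes were found in RefSeq. Differences of log2 signals were taken as deposited and set beside the share of genes at least 1.5-fold apart, with no test. Precision is limited by the number of arrays. The 10 genes and the lists were chosen with earlier results of these data known. Named genes were the 10, and from each list those at least 1.5-fold apart (at most 4) or else the 2 with the largest difference. Others (Cxcl1, Csf1, Sgk1, Tsc22d3 and marker genes) were chosen after their values were seen. The alternatives tried were centring on the median, quantile normalization, an offset of 50, the mean of all probe sets, other floors and other thresholds. The software was numpy 2.4.6, matplotlib 3.10.9 and pandas 2.3.3 under Python 3.11.15, and the counting was tested on simulated data.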

Additional observations from a re-analysis of the deposited data

How the results depend on the processing

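No paired analysis was possible because each group is 1 array. Under quantile normalization, centring and an offset of 50, none of the 30 differences of the 10 genes changed sign. With the mean of all probe sets 2 did, in hand acupuncture minus sham: Il1r1, at −1.36, and Bcl3, at 0.14 against −0.06. The medians of the 10 genes kept their sign in the settings run, at 0.18 to 0.30 for TBI minus sham, −0.15 to −0.10 for hand acupuncture minus TBI and 0.03 to 0.10 for hand acupuncture minus sham. The number of the 10 genes at least 1.5-fold apart was 1, 2 and 1 in these comparisons. It was 0 in each with an offset of 50 and 0 in each at 2-fold. It was 3, 3 and 2 at a lower threshold of 0.32 in log2, and 1 for hand acupuncture minus TBI under quantile normalization. With probe sets averaged it was 3 for hand acupuncture against TBI and 2 for hand acupuncture against sham. Over all genes above the floor 143, 112 and 175 were 1.5-fold apart. These were 86, 66 and 111 with the offset, 934, 754 and 1013 at the lower threshold, and 9, 4 and 18 at 2-fold. With no floor they were 1927, 1882 and 2036, and with the floor raised to 9.25 they were 37, 20 and 33. Low signal limits Icam1, Il4r, Socs3, Bcl3 and Tlr4 most.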

Other observations

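Genes with a kappaB consensus in the promoter window had medians close to those of other genes. Above the floor, 745 such genes had a median log2 difference of −0.0022 for TBI minus sham, against 0.0050 for 6975 genes without it, and 1.07% and 0.760% of them were at least 1.5-fold higher, while 0.940% and 0.645% were at least 1.5-fold lower. For hand acupuncture minus TBI the share at least 1.5-fold lower was 0.268% with the motif and 0.573% without. The share at least 1.5-fold higher was also smaller with it, at 0.403% against 0.659%. The 72 genes with GGAANTTCC had medians of 0.03 and −0.01 in these comparisons, and 0 of them were 1.5-fold apart in either, by the same threshold and with no test.

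Some genes of the interleukin-1 receptor family and of its regulators were lowest in the sham pool, and others were highest there. Irak3, an inhibitory relative of the receptor kinases, had log2 signals of 5.84 in the hand acupuncture pool, 5.11 in the TBI pool and 3.29 in the sham pool. Il1r2, the decoy receptor of interleukin-1, had 3.80, 3.51 and 1.27 in that order, and Il1rl1, the interleukin-33 receptor, had 5.39, 5.25 and 3.76. Sigirr, an inhibitory receptor of the same family, ran the other way, with 4.57, 4.81 and 5.20, as did Tollip, an inhibitory adaptor above the floor, with 10.11, 10.13 and 10.26. All but Tollip lie below the floor, where 35.9% of genes were at least 1.5-fold apart for TBI minus sham, and all 5 were picked after their values were seen. Of all genes below the floor, 39.2% were lowest in the sham pool and 27.9% were highest there.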
